A study of Homo sapiens with 12 samples.

Results

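Exons of 250 nt or more are long for human internal exons, and 5668 of them were read deeply enough to be followed through treatment with the splicing modulator H3B-8800. They were chosen as the exon rows of the deposited splicing table with a length of at least 250 nt and at least 20 inclusion plus exclusion reads in all 12 samples. The table held 103335 exons of any length with that many reads, of which 97667 were shorter. Another 9308 exon rows of 250 nt or more had too few reads in at least 1 sample. The long exons lay in 3574 genes, ran from 250 to 8528 nt with a median of 356 nt, and none overlapped another.

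MEC1, an established cell line from a chronic lymphocytic leukaemia, was compared in 4 groups of 3 samples. Treated samples received 75 nM H3B-8800 for 6 h and control samples received DMSO, the vehicle. In the wild-type (WT) groups, replicates 1 and 2 were labelled SF3B1 WT, and replicate 3 was labelled SF3B1 WT c.2106G>A. The 3 K700E replicates were labelled SF3B1 MUT with c.2098A>G together with c.2106G>A. What c.2106G>A does to the protein is not stated in the labels, and it is carried by 1 of the 3 WT and all 3 K700E replicates of each treatment. The sample names carry a suffix that is the same in both treatments of a replicate and differs between replicates. Every library pooled 3 technical paired-end runs, and all groups come from 1 cell line.

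SF3B1 is a subunit of the U2 snRNP, the particle that recognises the branch point upstream of each 3′ splice site, and H3B-8800 binds the SF3B complex. Most human internal exons are short, and the splicing machinery is thought to recognise such an exon as a unit, through its 3′ and 5′ splice sites together. Long internal exons are rarer and often carry large coding blocks, such as zinc finger arrays or disordered regions. When an exon is not recognised it can be left out of the mRNA, or an intron beside it can stay in.

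Inclusion is the share of junction reads that support the exon, in percent, and differences between groups are given in percentage points. An exon was called changed at an adjusted p under 0.05 (limma on the log2 ratio of inclusion to exclusion reads, Benjamini-Hochberg adjustment over all 109076 tested splicing events) where the group means lay 10 points or more apart. Of the long exons, 2204 were tested. Another 2619 had a mean inclusion above 99% and 845 a mean below 1% over the samples, and 0 of those untested exons changed by 10 points, so counts below are given over all 5668. The median long exon had 267 reads in a sample. At that depth the 95% Wilson interval of a level of 50% is ±5.95 points, and an absence of skipping reads allows up to 1.12%, for counting error only.

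The junction reads of each sample summed to between 45840233 and 56676172. All 8 B cell markers were read at 1 RPM or more (reads scaled to the junction reads of the library) in every sample, with a sum of 3757.56 to 6949.55. The 5 myeloid markers summed to 0.386 to 1.69, and the 6 T and NK cell markers to 5.96 to 36.2, with GNLY the only one at 1 or more in all samples and CD3G at 0 in all. The 5 fibroblast and epithelial markers summed to 33.8 to 285, from COL1A1, KRT8 and VIM, and their part in the results was not tested. These are bulk RNA samples, in which fewer cells with an isoform and less of it per cell cannot be told apart. The labels do not say that replicates were grown separately, so p-values measure the spread between these samples.

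The sequences below show long exons of 300 nt or less that lie whole within a coding region, taken from the GENCODE v29 transcripts (GRCh38) and written 5′ to 3′ with the first and last 3 bases in capitals. The first 3 were among the 12 largest falls in H3B-8800. The other 3 were listed at 100% in all 12 samples. EP300 and BUB1B had no skipping read, and B2M had 1 over the H3B-8800 samples.
FOXK1, chr7:4759311-4759595, plus strand: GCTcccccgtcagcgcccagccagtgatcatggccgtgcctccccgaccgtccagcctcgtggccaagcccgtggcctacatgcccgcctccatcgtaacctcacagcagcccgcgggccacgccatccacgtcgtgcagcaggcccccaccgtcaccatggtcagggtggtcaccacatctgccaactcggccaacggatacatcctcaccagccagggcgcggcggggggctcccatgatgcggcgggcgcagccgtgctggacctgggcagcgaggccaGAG
HEG1, chr3:125014713-125015012, minus strand: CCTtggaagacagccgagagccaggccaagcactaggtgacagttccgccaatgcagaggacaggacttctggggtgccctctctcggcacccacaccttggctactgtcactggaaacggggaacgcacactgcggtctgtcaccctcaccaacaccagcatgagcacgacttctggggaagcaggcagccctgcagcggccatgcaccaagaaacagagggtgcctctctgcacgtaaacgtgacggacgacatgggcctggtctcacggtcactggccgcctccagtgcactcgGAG
NEURL4, chr17:7325209-7325473, minus strand: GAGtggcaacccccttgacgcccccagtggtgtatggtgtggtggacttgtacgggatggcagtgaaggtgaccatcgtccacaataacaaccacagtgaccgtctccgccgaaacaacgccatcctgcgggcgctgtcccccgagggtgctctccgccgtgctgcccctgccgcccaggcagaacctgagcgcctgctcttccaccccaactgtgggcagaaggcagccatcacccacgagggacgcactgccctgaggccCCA
EP300, chr22:41176247-41176528, plus strand: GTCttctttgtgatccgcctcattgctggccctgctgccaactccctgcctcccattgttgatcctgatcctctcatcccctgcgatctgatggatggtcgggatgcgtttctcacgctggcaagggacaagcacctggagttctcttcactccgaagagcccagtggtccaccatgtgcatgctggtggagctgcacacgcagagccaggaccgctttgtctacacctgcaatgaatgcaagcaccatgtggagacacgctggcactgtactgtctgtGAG
BUB1B, chr15:40206184-40206458, plus strand: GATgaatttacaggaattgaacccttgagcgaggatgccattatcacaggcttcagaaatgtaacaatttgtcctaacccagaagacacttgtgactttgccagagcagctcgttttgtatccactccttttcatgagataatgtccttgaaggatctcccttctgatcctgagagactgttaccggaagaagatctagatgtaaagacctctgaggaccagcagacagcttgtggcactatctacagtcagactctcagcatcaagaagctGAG
B2M, chr15:44715423-44715701, plus strand: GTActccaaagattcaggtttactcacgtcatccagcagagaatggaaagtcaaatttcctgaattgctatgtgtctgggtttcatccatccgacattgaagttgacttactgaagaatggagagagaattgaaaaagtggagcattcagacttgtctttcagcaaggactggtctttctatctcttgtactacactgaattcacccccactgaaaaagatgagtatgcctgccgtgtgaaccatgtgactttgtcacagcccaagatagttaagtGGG

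The GC content of these exons was 70.5% in FOXK1, 61.7% in HEG1 and 64.9% in NEURL4. It was 56.7% in EP300, 44.7% in BUB1B and 42.7% in B2M. Other named coding exons of this length differed in their order. ZC3H18 (71.7%), SRCAP (65.0%) and INPP5D (62.8%) fell, but so did STIL (39.4%). SMC5 (40.2%), LUC7L3 (44.4%) and ZNF622 (44.1%) had no skipping reads, but neither had SF1 (64.6%) and BSG (64.3%). No conclusion on GC content is drawn from these exons. Shares by GC content over many long exons are given further on. Skipping joins the exons on either side. The junctions made in 4 of the exons with large falls are shown with the end of the upstream exon in lower case and the start of the downstream exon in capitals.
FOXK1 skipping junction: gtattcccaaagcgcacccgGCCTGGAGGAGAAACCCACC
NEURL4 skipping junction: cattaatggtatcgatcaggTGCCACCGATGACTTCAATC
SRCAP skipping junction: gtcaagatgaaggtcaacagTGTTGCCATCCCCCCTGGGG
UIMC1 skipping junction: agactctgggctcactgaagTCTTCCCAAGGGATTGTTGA

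In the annotated transcripts used, leaving out the FOXK1 exon removes 95 codons and keeps the reading frame. Leaving out the NEURL4 exon shifts the frame, and the first stop codon ends 35 nt after the junction. The SRCAP and UIMC1 joints also shift the frame, with the first stop ending 124 and 20 nt downstream.

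H3B-8800 lowered the inclusion of long exons in both genotypes, but in a smaller share than among shorter exons. In WT, 550 of the 5668 long exons (9.70%) were lower and 42 (0.741%) were higher. Of all exons with enough reads, 18.0% were lower and 0.225% were higher. In K700E, 503 (8.87%) were lower and 38 (0.670%) were higher, against 17.3% and 0.198% of all exons. Of the lower calls 446 were shared, which is 81.1% of those in WT and 88.7% of those in K700E. Of the higher calls 31 were shared, and 0 exons were called in opposite directions. The median change over all long exons was -0.15 points in WT and -0.157 points in K700E. Over all exons with enough reads it was -0.547 and -0.523 points.

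The mean inclusion over all long exons was 74.8% ± 0.0751 (SD, n = 3) in WT with DMSO and 71.9% ± 0.337 (SD, n = 3) in WT with H3B-8800. In K700E it was 75.0% ± 0.0508 (SD, n = 3) and 72.2% ± 0.119 (SD, n = 3). Within each replicate the mean over long exons differed by -3.28 to -2.66 points between treatments, and the mean over shorter exons by -6.63 to -5.69 points. The difference was smaller for long exons in 6 of 6 pairs. No test was run of the difference between the length classes, since the long exons share their samples with the shorter ones and were proposed with results of these data known.

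From 28 nt up, the share of exons called lower was smaller in each longer class up to the class that starts at 300 nt. The shortest class, of 3 to 27 nt, stood apart from this order, with 9.29% lower in WT and 9.63% in K700E. In WT it was 25.5% at 28 to 50 nt, 21.3% at 76 to 100 nt, 16.7% at 126 to 150 nt, 13.2% at 176 to 200 nt and 11.8% above that and under 250 nt. Among long exons it was 9.44% under 300 nt, 8.81% from 300 nt to under 400 nt, 9.39% from there to under 600 nt, 11.5% from there to under 1000 nt and 10.8% in the 397 exons of 1000 nt or more. The K700E shares from 28 nt up were also smaller in each longer class to under 400 nt, from 24.8% to 8.03%. Of the 112 exons just inside the length threshold, by at most 1 nt, 11 were lower in WT and 10 in K700E, and of the 133 exons just outside it, by at most 2 nt, 14 and 19 were lower. An exon of MCL1, a BCL2 family survival protein, is 2 nt too short, and its mean inclusion was 96.9% in WT with DMSO and 76.6% with H3B-8800.

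**Figure D1:**
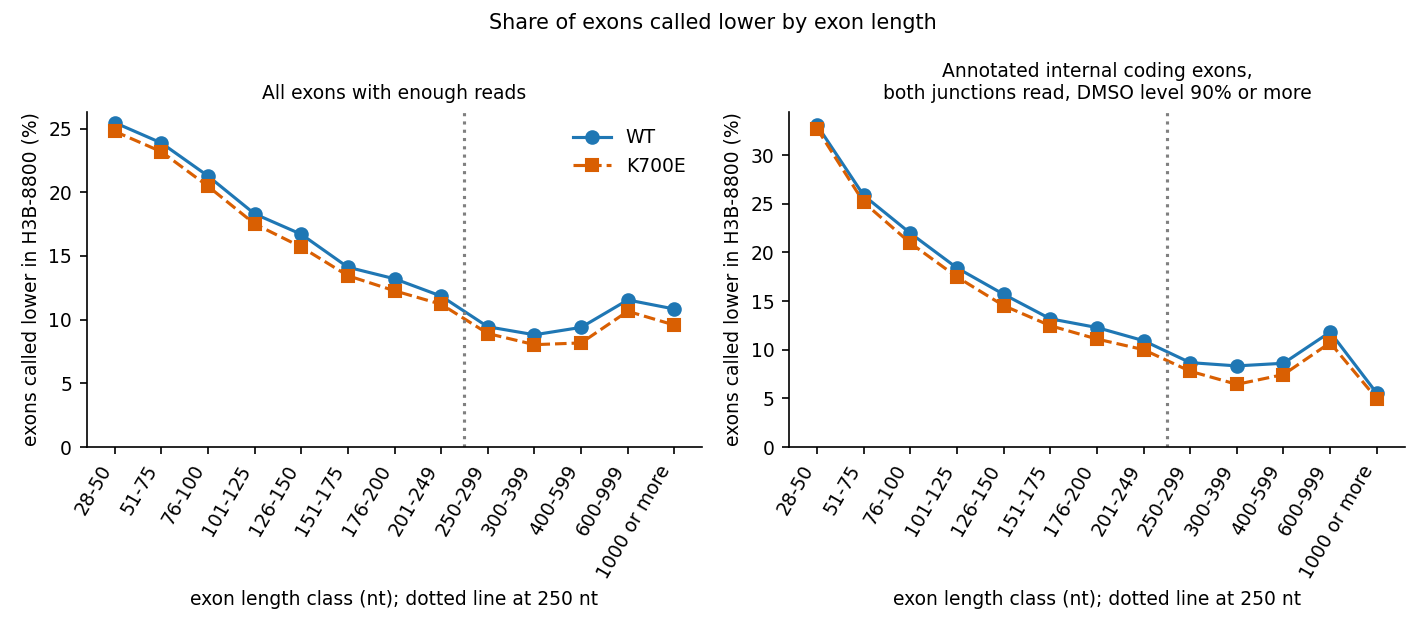
Share of exons called lower in H3B-8800 (y axis, percent) by exon length class in nt (x axis), for WT (circles) and K700E (squares). The left panel holds all exons with enough reads from 28 nt up and the right panel annotated internal coding exons at 90% or more in DMSO; the share in WT falls from 25.5% to 9.44% in the class just above 250 nt on the left and from 33.1% to 8.67% on the right.

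Long exons of the table were not all of 1 kind. Of the 5668, 3869 matched an annotated internal exon exactly, 262 matched another form of one, 11 matched a terminal exon only and 1526 matched none. By place, 2972 were coding, 687 partly coding, 94 untranslated and 127 noncoding. Among those without an exact match, 730 overlapped a coding exon, 309 another exon and 749 no exon. The last kind sat near 0%, with a median of 0.20% in WT with DMSO, and 1 of the 749 was lower in WT. In 1582 long exons the upstream and downstream inclusion junctions differed more than 3-fold in their DMSO reads, and these are called one-sided below, since their inclusion level rests mostly on 1 junction. Of the 4086 two-sided exons, 406 (9.94%) were lower in WT and 365 (8.93%) in K700E, with 10 higher in each.

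The most comparable set was the 2518 long exons that are annotated as internal and coding, two-sided, and included at 90% or more in DMSO in both genotypes. Of these, 222 (8.82%) were lower in WT and 193 (7.66%) in K700E. The 181 of them of 1000 nt or more had the lowest shares of any length class, 5.52% in WT and 4.97% in K700E, unlike the exons of that length without these filters. The same filters left 60181 shorter exons, with 18.7% and 17.8% lower. The number of long exons of this set below 90% inclusion in a single sample was 7.33 ± 1.15 (SD, n = 3) in WT with DMSO, which the filter sets, and 272 ± 32.7 (SD, n = 3) with H3B-8800. As a share this was 10.8% ± 1.30 (SD, n = 3) with H3B-8800, against 20.4% ± 0.604 (SD, n = 3) of the shorter exons in the same samples. In K700E the shares were 9.45% ± 0.0794 (SD, n = 3) and 19.5% ± 0.509 (SD, n = 3). The median reads per long exon were 294 ± 20.7 (SD, n = 3) in WT with DMSO and 223 ± 9.02 (SD, n = 3) with H3B-8800, and the part of this depth in the calls was not tested.

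Among long exons at 50% or more, the share called lower was smaller the closer the level before treatment was to 100%. When all annotated internal coding two-sided long exons were sorted by their level in K700E with DMSO, 51 of the 69 at 50 to 90% (73.9%) and 43 of the 63 at 90 to 95% (68.3%) were lower in WT with H3B-8800. The share was 42.8% of 145 at 95 to 98%, 31.9% of 163 at 98 to 99%, 8% of 650 from 99% up to the last class and 1.26% of 1509 in the last class, within 0.1 points of 100%. Below 50% the classes were thin, with 0 of 16 exons lower under 10% and 4 of 14 (28.6%) from 10 to 50%. Levels came from the other genotype, so that the same DMSO values did not enter both sides. Shorter exons in the classes from 50% up were lower in 80.1%, 76.4%, 62.8%, 46.0%, 21.4% and 4.18%, a higher share in each class. In K700E, sorted by the WT level, the long exons gave 72.6%, 60.6%, 35.8%, 20.9%, 6.75% and 1.52%.

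**Figure D2:**
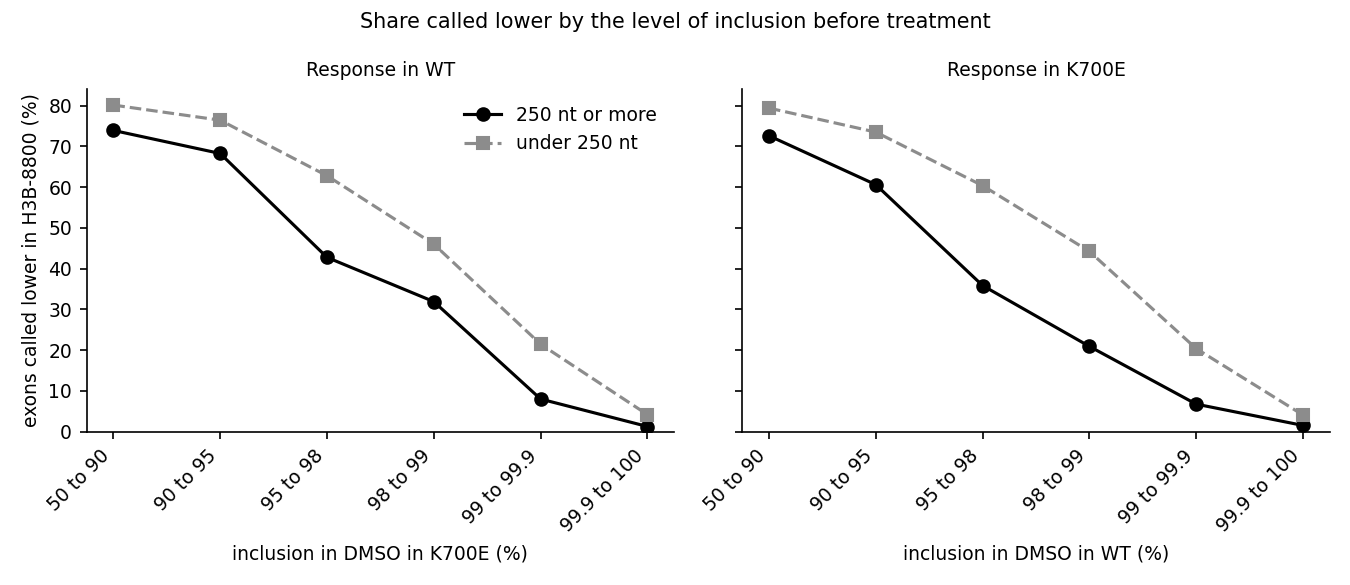
Share of annotated coding two-sided exons called lower in H3B-8800 (y axis, percent) by their inclusion in DMSO in the other genotype (x axis, percent), for the response in WT (left) and in K700E (right). Long exons (black circles) lie below shorter exons (grey squares) in every class drawn, and both shares drop towards the exons closest to 100%, where 1.26% of long exons were lower in WT.

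In WT the share called lower differed more by the length of the neighbouring introns than by GC content or reading frame. The K700E shares ran from 5.33% at 40% GC or less to 10.3% over 60% GC. By upstream intron they ran from 6.22% at 500 to 2000 nt to 12.7% over 10000 nt, a range close to that by GC. The shares called lower that follow are for WT. Of the comparable long exons with an upstream intron over 10000 nt, 15.1% were lower in WT, against 7.32% with an upstream intron of 500 to 2000 nt. For the downstream intron the shares were 15.6% and 7.38%, and 5 of 138 (3.62%) were lower where it had 150 nt or less. Shorter exons also had their highest share beside the longest introns, 24.7% for the upstream and 26.7% for the downstream intron. Exons over 60% GC were lower in 10.6% and exons of 40% GC or less in 8.15%, with 7.55% to 9.87% in the classes between. Among shorter exons the shares were 19.1% over 60% GC and 20.9% at 40% GC or less. By length divided by 3, exons with a remainder of 0, 1 and 2 were lower in 8.89%, 7.84% and 9.63%, and a remainder of 0 keeps the reading frame. The exon ended in CAG or AAG, the usual bases before a 5′ splice site, in 41.7% of the long exons lower in both genotypes and in 51.1% of the 2278 called in neither. It ended in AG in 60.6% and 64.0% of these sets, and in G in 85.7% of each. Among shorter exons under the same filters, CAG or AAG ended 41.5% of the 9843 lower in both genotypes and 43.5% of all 60181. These shares are descriptions with no test.

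The 12 long exons with the largest falls had differences of -84.3 to -57.3 points in WT and -71.8 to -58.2 points in K700E. They were chosen among exons called lower in both genotypes whose 3 treated samples lay below the 3 DMSO samples in each. HDX, a homeobox protein, had the largest fall, in an internal coding exon of 1104 nt at chrX:84468472-84469575. Its inclusion was 100%, 100% and 91.3% in WT with DMSO and 16.9%, 6.38% and 15.2% with H3B-8800. In K700E it was 100%, 77.3% and 83.3%, and 18.0%, 9.52% and 17.6%. Its adjusted p (limma) was 7.2e-05 in WT and 0.000545 in K700E, but the exon had as few as 20 reads in a sample. Skipping it removes 368 codons in frame from the transcript used.

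FOXK1, a forkhead transcription factor, had its 285 nt coding exon at 96.9%, 94.3% and 95.2% in WT with DMSO and at 28.4%, 30.6% and 23.4% with H3B-8800. The K700E samples were at 95.1%, 100% and 96.2%, and at 53.5%, 30.9% and 24%. K700E replicate 1 kept more of the exon than the other treated samples. All 6 treated values were below all 6 DMSO values, which the choice of these exons required within each genotype. The change of the log2 ratio was -5.53 (SE 0.62, adjusted p 6.99e-06, limma) in WT and -5.68 (SE 0.62, adjusted p 6.14e-06, limma) in K700E.

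HEG1, a membrane protein with a long extracellular region, had its 300 nt coding exon at 91.2%, 92% and 94.2% in WT with DMSO and at 19.6%, 31.5% and 26.3% with H3B-8800. K700E went from 90.2%, 91.1% and 91.7% to 33.7%, 25.9% and 28.6%. With at least 201 reads in every sample this was the best read of the exact coding exons among the 12, and its adjusted p (limma) was 6.43e-08 in WT and 1.67e-07 in K700E. The transcript that holds this exon is annotated without its start, so the frame of the skipped form was not computed.

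NEURL4, a protein of the neuralized family, had its 265 nt exon at 100%, 98.8% and 100% in WT with DMSO and at 42.4%, 45.2% and 39.4% with H3B-8800. K700E went from 99.2%, 98.9% and 98% to 31.9%, 30.4% and 37.2%. Its adjusted p (limma) was 2.26e-07 and 7.44e-07. The intron upstream of this exon, 167 nt long, was retained at 6.58% ± 0.162 (SD, n = 3) in WT with DMSO and at 47.8% ± 4.95 (SD, n = 3) with H3B-8800. Both the loss of the exon and the retention of its intron were called in both genotypes.

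FBRS, fibrosin, had its 302 nt coding exon at 100%, 94.7% and 94.4% in WT with DMSO and at 30.1%, 34.7% and 36.5% with H3B-8800. In WWC3 the deposited 424 nt form is not the annotated one, and its WT mean was 92.4% with DMSO and 25.9% with H3B-8800, beside 98.8% and 39.6% in K700E. SNX5, a sorting nexin of endosomal transport, had a 307 nt exon annotated only in a noncoding transcript, with a mean of 85.8% in WT with DMSO and 7.88% with H3B-8800. Each of these 3 passed the test in both genotypes.

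The remaining 5 of the 12 were one-sided. PROSER1 had 6664 upstream and 1 downstream inclusion read in DMSO for its 1593 nt form, which matches no annotated exon, and its mean went from 97.1% to 18.1% in WT. TRAPPC12, a subunit of the TRAPP tethering complex, went from 99.7% to 30.7%, MCPH1, microcephalin, from 88.9% to 20.1%, RRP8, a nucleolar methyltransferase, from 82.2% to 15.2%, and ZDHHC5, a palmitoyltransferase, from 96.4% to 33.7%. In PROSER1, MCPH1 and ZDHHC5 the weaker junction had 4 inclusion reads or fewer in DMSO, so the fall of 1 junction against the skipping reads is what was measured. The weaker junction had 132 reads in TRAPPC12 and 476 in RRP8.

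**Figure D3:**
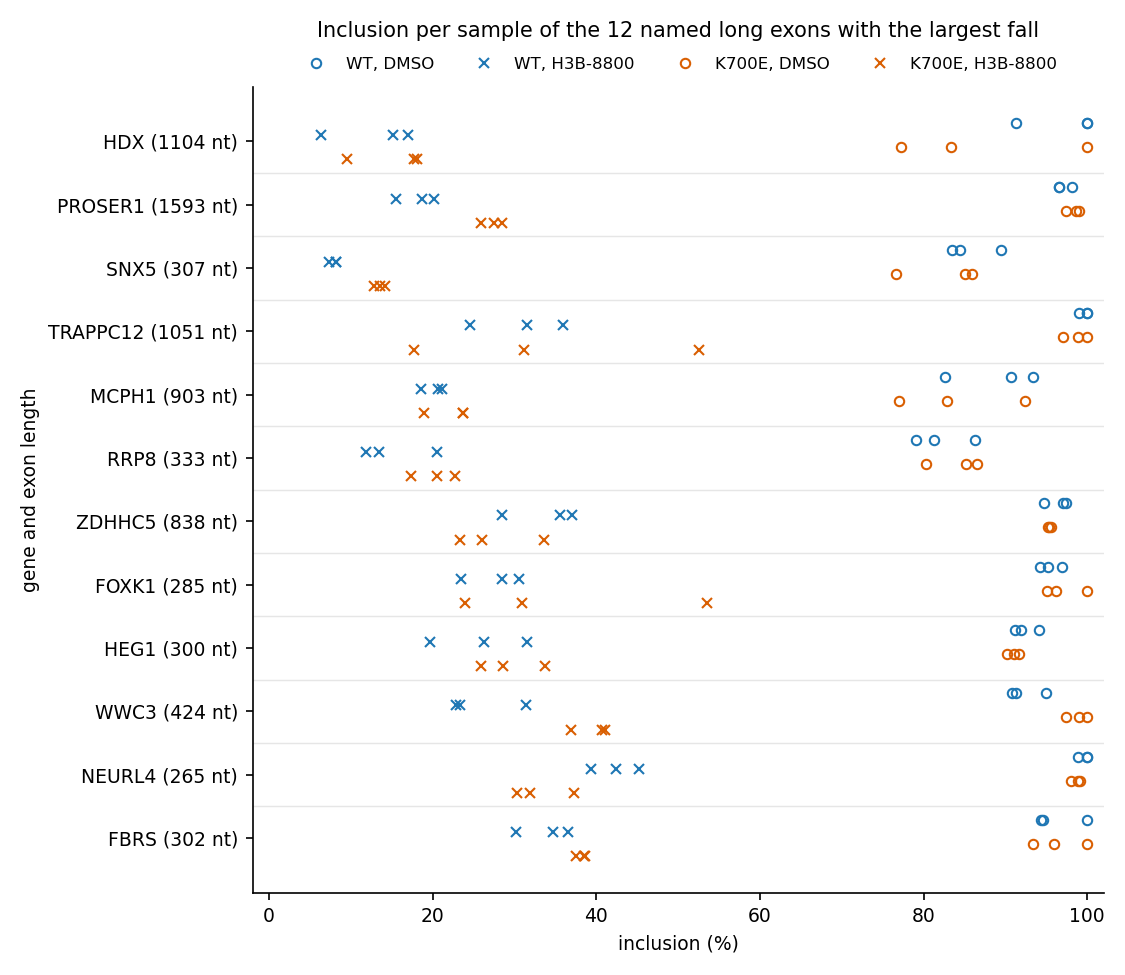
Inclusion in percent (x axis) of the 12 long exons with the largest falls (y axis, gene and exon length), 1 mark per sample, with circles for DMSO and crosses for H3B-8800, WT in blue and K700E in orange. The choice of these exons required the treated samples of a genotype to lie below its DMSO samples. The widest treated spreads are those of TRAPPC12 and FOXK1 in K700E.

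Some genes held several long exons that fell, and these were looked up after their values were seen. SRCAP, the ATPase that deposits the histone variant H2A.Z, had 9 long exons, of which 4 neighbours fell in both genotypes and 5 did not reach 10 points. The exon of 266 nt at chr16:30720713-30720978 was at 91.2%, 93.5% and 92.5% in WT with DMSO and at 26.8%, 41.3% and 38.6% with H3B-8800, with an adjusted p (limma) of 1.17e-07. The next 3 long exons, of 288, 267 and 1499 nt, went from means of 84.0%, 97.5% and 97.4% to 32.1%, 45.8% and 49.9% in WT. The other 5 long exons had means of 97.5% to 99.8% in WT with H3B-8800. The table does not say whether neighbouring exons were skipped in the same transcripts, so the 4 cannot be counted as independent.

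CD22, an inhibitory receptor of B cells built from immunoglobulin domains, had 5 long exons, and 4 fell. The pair of 267 and 264 nt was at 72.4%, 78.9% and 77.7%, and at 74%, 79.6% and 79.1%, in WT with DMSO. With H3B-8800 it was at 43.1%, 48.0% and 43.0%, and at 45.7%, 48.1% and 45.1%. The exons of the pair lie next to each other and had close values in each sample. Another CD22 exon, the last of the 5 and also of 264 nt, had WT samples of 99.6%, 100% and 100% with DMSO and of 82.2%, 86.7% and 81.5% with H3B-8800, while the 258 nt exon before it stayed within 1 point of 100% in every sample.

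**Figure D4:**
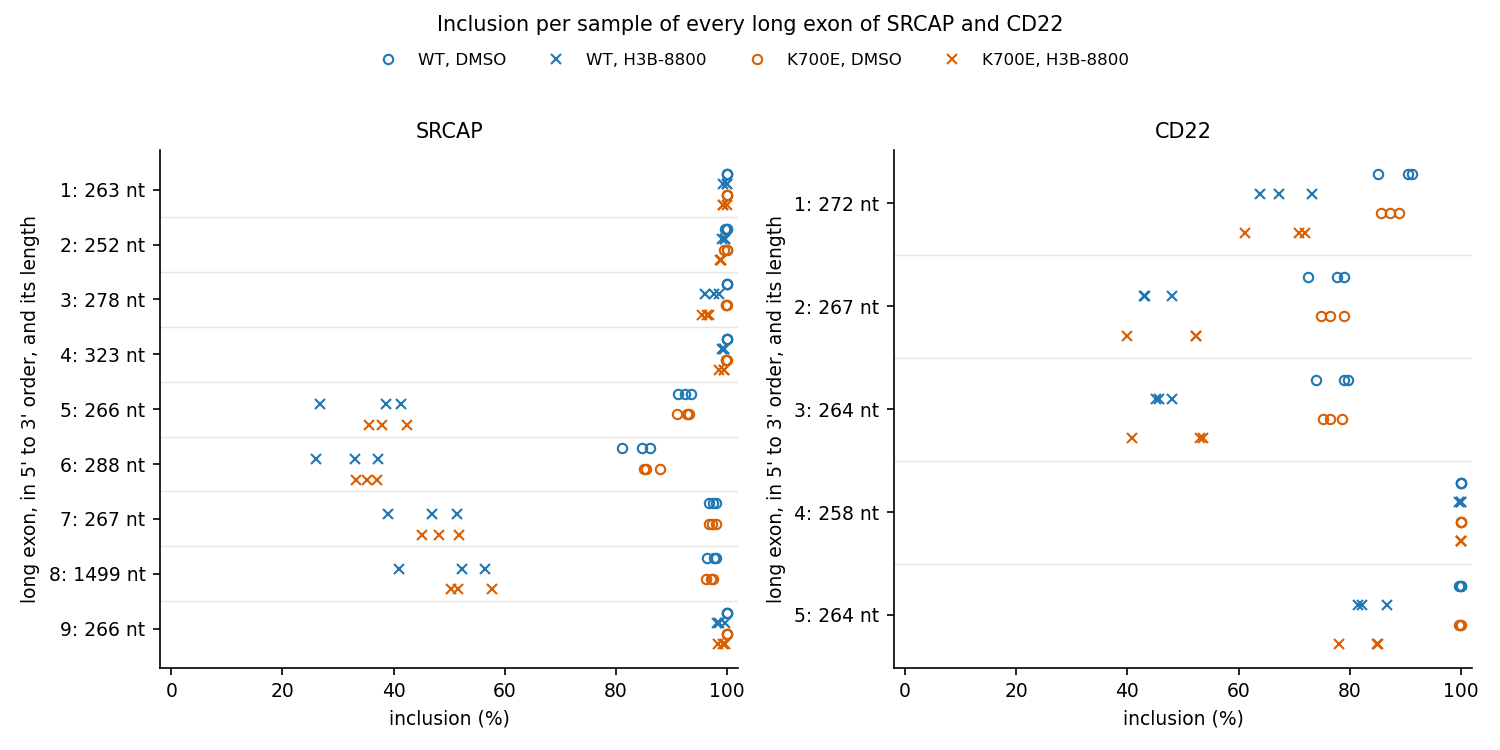
Inclusion in percent (x axis) of each long exon of SRCAP (left) and CD22 (right) in 5′ to 3′ order (y axis, with exon length), 1 mark per sample, circles for DMSO and crosses for H3B-8800, WT in blue and K700E in orange. In SRCAP the fifth to the eighth long exon drop to means of 32.1% to 49.9% in WT while the other 5 have WT means of 97.5% or more; in CD22 the 258 nt exon stays at the right edge.

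The gene lists below are read beside the 9.70% of all long exons lower in WT and 8.87% in K700E, and no test of a list was run. Genes of DNA repair and replication held 75 long exons, of which 12 were lower in WT (16%) and 8 in K700E (10.7%), with none higher, and a median change of -0.437 points in WT. UIMC1, which brings the BRCA1-A complex to ubiquitin at breaks, had its 737 nt coding exon at 84.2%, 88.6% and 87.1% in WT with DMSO and at 27.8%, 36.8% and 35.4% with H3B-8800. MDC1, the scaffold that binds phosphorylated histone H2AX, had its 792 nt exon at 88.5%, 85.1% and 86.8%, and at 28.6%, 36.8% and 40.9%. Both fell in K700E too, with adjusted p (limma) of 3.97e-07 and 9.59e-07. Skipping the MDC1 exon removes 264 codons in frame, while skipping the UIMC1 exon shifts the frame. EXO1, an exonuclease, and SMC5, of the SMC5/6 complex, had long exons at 100% in all samples, where 0 skipping reads allow up to 0.360% and 0.651% in the sample with the fewest reads.

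Chromatin regulators held 257 long exons, 26 lower in WT (10.1%) and 21 in K700E (8.17%), and 5 and 4 higher, with a median change of -0.18 points in WT. Beside SRCAP, the 1055 nt exon of ATRX, a chromatin remodeller, was at 100%, 98.7% and 98.8% in WT with DMSO and at 58.9%, 63.8% and 56.7% with H3B-8800. Its upstream junction had 841 and its downstream junction 258 reads in DMSO. ASXL1, a Polycomb-linked protein, had its 634 nt exon at 100% in all 12 samples, where up to 0.216% skipping is allowed. The intron after that exon was retained at 2.32% ± 0.191 (SD, n = 3) in WT with DMSO and at 39.9% ± 3.18 (SD, n = 3) with H3B-8800. In EP300, a histone acetyltransferase, the 282 nt exon stayed at 100%, and the intron after it was retained at means of 2.34% and 12.2% in WT and of 1.76% and 15.4% in K700E, which passed the size in K700E alone. The difference between genotypes for that intron was not called.

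Genes of mitosis and the centrosome held 118 long exons, 17 lower in WT (14.4%) and 13 in K700E (11%), and 2 higher in each, with a median change of -0.223 points in WT. The 989 nt exon of ESPL1, the protease separase that cuts cohesin, was at 91.9%, 90.9% and 93.2% in WT with DMSO and at 48.7%, 57.4% and 50.8% with H3B-8800. STIL, a centriole duplication factor, had a coding exon at 82.3%, 83.7% and 80.4%, and at 38.5%, 46.5% and 50.5%. The proliferation antigen MKI67 and the checkpoint kinase BUB1B had long exons at 100% throughout. Both rises in this list were in mitotic kinesins and were looked up after their values were seen. A 291 nt exon of CENPE was at 5.53%, 6.13% and 4.76% in WT with DMSO and at 15.2%, 24.7% and 29.8% with H3B-8800, and a 312 nt exon of KIF23 was at 20.1%, 23.5% and 24.1%, and at 39.7%, 53.9% and 49.4%. Both rose in K700E as well, to means of 26.8% and 44.3%.

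RNA processing genes held 129 long exons, of which 6 (4.65%) were lower in each genotype and none higher, with a median change of -0.23 points in WT. ZC3H18, which links the cap-binding complex to RNA decay, had its 269 nt exon at 86.9%, 85.7% and 87.7% in WT with DMSO and at 37.1%, 44.6% and 46.8% with H3B-8800. SRRM2, a nuclear speckle scaffold, had a 273 nt exon that went from a mean of 82.6% to 51.8%, read at its downstream junction in 4396 of its DMSO reads and at its upstream junction in 10. The long exons of SF1, the branch point binding protein, and of LUC7L3, a U1-associated factor, stayed at 100%. Both falls were to intermediate levels and were called in K700E as well.

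Immunoglobulin domain and MHC genes held 91 long exons, 13 lower in WT (14.3%) and 12 in K700E (13.2%) and none higher, with a median change of -0.253 points in WT. LY9, a SLAM family receptor, had a 342 nt exon at 93.9%, 93.8% and 96.5% in WT with DMSO and at 81.9%, 62.1% and 52.9% with H3B-8800. K700E went from 96.4%, 100% and 97.7% to 37.6%, 54.1% and 63.4%, and the treated samples spread widely in both genotypes. SIRPA, the CD47 receptor, had a one-sided exon with as few as 29 reads and treated values of 62.6%, 28% and 25.4% in WT, against 97.2%, 93.7% and 98.6% with DMSO. B2M, the light chain of MHC class I, had its 279 nt exon listed at 100% with at least 54512 reads in every sample, and 1 skipping read over the H3B-8800 samples. The 277 nt exon of BSG, basigin, was one-sided and also at 100%.

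Apoptosis regulators held 26 long exons, 3 (11.5%) lower in each genotype and none higher, with a median change of -0.728 points in WT. BIRC6, a large inhibitor of apoptosis, had its 315 nt exon at 99%, 99.4% and 98.9% in WT with DMSO and at 45.2%, 60.2% and 49.2% with H3B-8800. Skipping it removes 105 codons in frame. BCL2L11, the BH3-only protein BIM, had its 407 nt exon at 93.6%, 95.6% and 91.8%, and at 62.3%, 57.3% and 49.9%. K700E ended at 58.3% for BIRC6 and 65.2% for BCL2L11, and neither difference between genotypes was called. CASP8 and DIABLO had long exons at 100% in all samples, that of DIABLO being one-sided.

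B cell receptor and NF-kappaB genes held 46 long exons, 4 lower in WT (8.70%) and 2 in K700E (4.35%) and none higher, with a median change of -0.517 points in WT. INPP5D, the phosphatase SHIP1, had its 282 nt exon at 98.8%, 98.9% and 99% in WT with DMSO and at 78.7%, 82.9% and 80.7% with H3B-8800. The intron after it was retained at 1.96% and 27.1%. DOK3, an inhibitory adaptor, had its 306 nt exon at a mean of 87.1% and 70.9% in WT, and of 88.6% and 78.8% in K700E, where it missed the 10-point size. RASGRP3 and TNFAIP3 had one-sided long exons at 100%.

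Zinc finger transcription factors held 228 long exons, 32 lower in WT (14%) and 34 in K700E (14.9%), and 4 and 3 higher, with a median change of -0.367 points in WT. ZSCAN12 had a 1147 nt exon at 80.0%, 82.9% and 83.9% in WT with DMSO and at 38.6%, 43.3% and 55.1% with H3B-8800. ZNF444 had a 259 nt form at means of 99.3% and 53.0%. The long exons of ZNF622 and ZNF687 stayed at 100%. The median change over the members of all 8 lists ran from -0.728 to -0.18 points in WT, beside -0.15 points over all long exons. The shorter exons of the same 8 lists were lower in 15.8% (RNA processing) to 23.7% (apoptosis regulators) in WT, a higher share than among the long exons of each list.

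Few long exons rose with H3B-8800, though their share, 0.741% in WT, was above the 0.225% of all exons with enough reads. Most of those with the largest rises match no annotated exon. AHRR, the aryl hydrocarbon receptor repressor, had a 653 nt exon outside annotated exons at 7.95%, 10.2% and 6.38% in WT with DMSO and at 56.5%, 59.0% and 45.6% with H3B-8800. DOPEY1 had a 359 nt one at 3.45%, 1.54% and 5.62%, and at 42.2%, 43.0% and 46.0%. Both were two-sided by their DMSO reads and rose in K700E, to means of 54.3% and 47.5%, with adjusted p (limma) of 7.52e-06 and 1.95e-05. Over the H3B-8800 samples AHRR had 309 upstream and 10 downstream inclusion reads, against 105 and 48 in DMSO. Its rise therefore rests mostly on the upstream junction. DOPEY1 had 183 and 201, against 15 and 46 in DMSO. HEATR3, TMEM128, CCDC18 and SP110 made up the rest of the 6 largest rises and were one-sided, with WT means that went from 28.5% to 76.1%, from 58.4% to 91.6%, from 14.1% to 43.2% and from 60.1% to 90.6%. Of the 42 long exons higher in WT, 10 were two-sided. In WT, 0.245% of two-sided and 2.02% of one-sided long exons were higher. Among shorter exons the shares were 0.0889% and 0.992%.

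The longest members changed little. The 8176 nt exon of SPEN, a transcriptional corepressor, was one-sided and at 100% in all 12 samples, where up to 0.977% skipping is allowed. The 6139 nt exon of BOD1L1, a replication fork protein, had means of 99.8% and 99% in WT and of 100% and 98.5% in K700E. The long forms in CUX1, GPR132 and ADGRG5, of 8528, 7310 and 5986 nt, match no annotated exon and were one-sided. The CUX1 form was at 8.47% ± 2.70 (SD, n = 3) in WT with DMSO and 13.7% ± 4.64 (SD, n = 3) with H3B-8800, which did not pass (adjusted p 0.164, limma), and the other two were at 100%.

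Introns beside long exons were often retained with H3B-8800, in shares close to those beside shorter exons. Enough reads and balanced junctions were had for 5445 neighbouring introns, of which 935 (17.2%) were higher in WT and 908 (16.7%) in K700E. In each genotype 8 were lower, where 0.361% of all tested introns were lower in WT and 0.363% in K700E. Beside shorter exons 18.9% of 69326 introns were higher in WT. Among tested introns alone, 935 of 3132 beside long exons were higher, where 31.9% of all 45188 tested introns were higher in WT and 31.6% in K700E. Upstream introns were higher in 16.1% and downstream introns in 18.4%.

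Of the comparable long exons with both neighbouring introns measured, 1640 could be sorted by outcome. In WT, 5.43% were lower with no intron called, 24.7% had a higher intron with the exon not called, 2.74% had both and 67.1% neither. For 43464 shorter exons the shares were 12.5%, 21.1%, 6.12% and 60.2%. Among long exons that fell in WT, 24.7% of the neighbouring introns were higher, against 16.5% beside those not called. For shorter exons under the same filters the shares were 25.4% and 18.2%. The largest retention beside a named long exon was upstream of the 5986 nt form in ADGRG5, at 2.79% ± 0.410 (SD, n = 3) in WT with DMSO and 53.8% ± 7.61 (SD, n = 3) with H3B-8800.

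**Figure D5:**
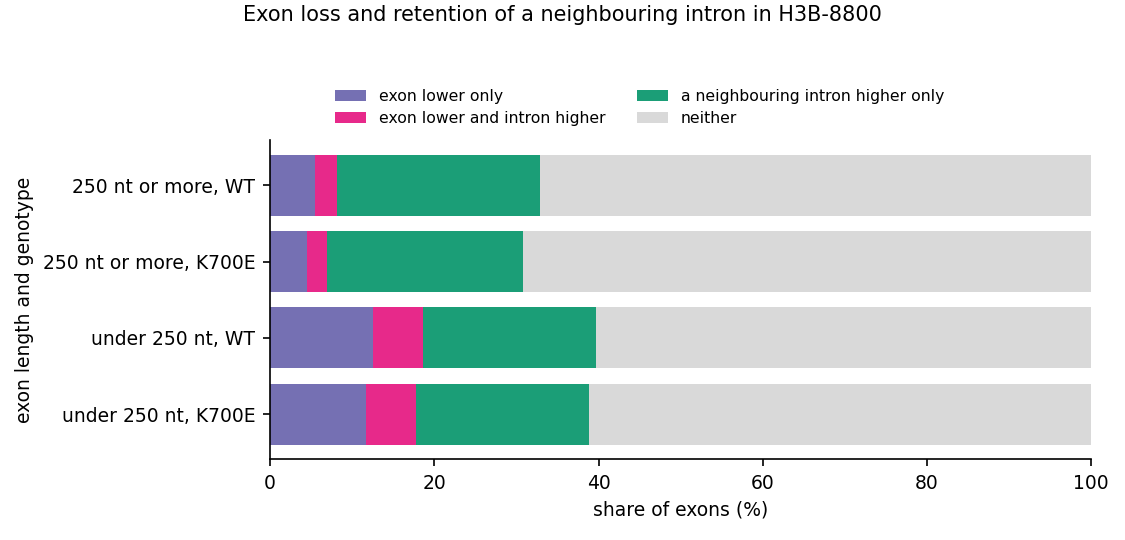
Outcome of H3B-8800 (bars, percent of exons on the x axis) for annotated coding exons at 90% or more in DMSO with both neighbouring introns measured, by exon length and genotype (y axis). The segment for an exon lower only is 5.43% for long exons and 12.5% for shorter exons in WT, and the segment for a higher intron only is 24.7% and 21.1%.

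Splice sites inside long exons were measured in few cases. Alternative 3′ sites within 61 long exons gave 67 tested sites, of which 6 were used more and 1 less in WT with H3B-8800, where 6.18% of all 10469 tested sites of this kind were used more and 3.06% less. In K700E 4 were used more and 2 less, against 8.26% and 3.97%. The largest increases were in FANCG, of the Fanconi anaemia core complex, by 33.7 points in WT and 38.6 in K700E, and in DDX39B, an RNA helicase of splicing and export, by 23.8 and 40.1 points. Alternative 5′ sites gave 31 tested sites, of which 0 were called in WT, against 5.33% used more and 1.72% used less over all 7142, and 1, in RRNAD1, was used more in K700E, where 4.2% of all were. In DMSO, 1 of the 67 alternative 3′ sites was used more in K700E, against 1.84% of all. It lies in CNTRL, a centrosomal protein, and differed by 41.4 points. These sites were named after their values were seen.

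Between the genotypes in DMSO, few long exons were called. Of the 5668, 2 were lower and 1 higher in K700E than in WT, where 0.0281% of all exons with enough reads were lower and 0.0203% higher. TTI1, a partner of PI3K-like kinases, had a 708 nt form at 88.9%, 88.9% and 85.0% in WT and at 69.3%, 66.3% and 68.6% in K700E (adjusted p 0.0167, limma). KDM3A, a histone demethylase, had a 545 nt form at 11.2%, 8.16% and 18.7%, and at 1.29%, 0.770% and 1.68% (adjusted p 0.00457, limma). ATF7, a transcription factor, had a 336 nt form at 73.7%, 85.4% and 88.6%, and at 93.8%, 100% and 100% (adjusted p 0.0425, limma). None overlapped between the genotypes, and all 3 were one-sided, with 2 and 1631 upstream and downstream reads in TTI1, 68 and 0 in KDM3A and 286 and 2 in ATF7. Among two-sided long exons 0 were called, where 212 of 1437 had an unadjusted p under 0.05 and 25 an adjusted p under 0.05 (limma) without reaching 10 points. TTI1 also rose with H3B-8800 in K700E, to 82.8%, and was at 84.9% in WT with H3B-8800. The count of 3 went to 1 when WT replicate 1, WT replicate 2, WT replicate 3 or K700E replicate 2 of the DMSO groups was left out.

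The effect of H3B-8800 on long exons was not called different between K700E and WT in any of them. Of 2204 tested, 161 had an unadjusted p under 0.05 and 1 an adjusted p under 0.05 (limma, interaction of genotype and treatment), without reaching 10 points. Over all exons with enough reads 0.00194% were called in each direction. Tested on the percentage scale, 6 long exons were called. For HDX, the exon with the largest fall, the effect was -84.3 points in WT and -71.8 in K700E, and for NEURL4 -57.3 and -65.5.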

How the data were processed

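Bulk RNA of 12 MEC1 samples was sequenced as stranded mRNA libraries (TruSeq), per the labels' protocols. The authors deposited 1 table of splicing events with an inclusion level in percent for each pooled library, on hg38 per the submitters' processing notes, with read numbers beside it. Reads were trimmed with cutadapt 2.4, per the submitters' processing notes; the aligner and event caller: not given in the sources used here. In all, 36 columns that hold single technical runs were not used. Reads assigned by junction depend on both junctions being covered, so named one-sided exons are given as such or with their junction reads.

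From the deposited percent values and read numbers, log2((inclusion + 0.5)/(exclusion + 0.5)) went into limma 3.58.1 (R 4.3.3) with 4 groups and all 12 samples, with a variance trend on read depth and Benjamini-Hochberg adjustment over 109076 events (46277 exons, 45188 introns, 10469 alternative 3′ and 7142 alternative 5′ sites) with at least 20 reads in every sample and a mean of 1 to 99%. The fit was tested on simulated data. Differences are of group means. Python 3.11.15, pandas 2.3.3, numpy 2.4.6, scipy 1.17.1 and matplotlib 3.10.9 did the rest. Annotation, reading frames and sequences came from GENCODE v29 (GRCh38).

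Named exons were, with 1 exon per gene, the 12 largest falls and the 6 largest rises called in both genotypes. For these, the treated samples of each genotype had to lie all below, or all above, its DMSO samples. Every exon called between the genotypes and the 5 longest were also named. Each gene list gave up to 2 largest falls and 2 smallest changes among exons at 50% or more in WT with DMSO. Others are said to be chosen after their values were seen. The members and lists were chosen with earlier results of these data known. The same name suffix marks DMSO and H3B-8800 samples of a replicate; their deviations from group means correlated at 0.0148 to 0.0695, and the pairing by suffix was tried as a block. Beyond the last bases of exons, splice site sequences were not analysed here.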

Additional observations from a re-analysis of the deposited data

Results flagged for a closer look

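In SAMD8, a sphingolipid enzyme, a 1007 nt form at chr10:75176388-75177394 (plus strand) had an effect of H3B-8800 that differed between the genotypes by the test of the interaction (adjusted p 0.0312, limma). All 6 WT samples and the 3 K700E samples with DMSO were at 100%, and the K700E samples with H3B-8800 were at 89.4%, 94.2% and 93.5%. The difference of the effects was -7.65 points, under the 10 points asked of a call, with the same sign in 3 of 3 treated K700E samples. The form matches no annotated exon and was one-sided, with 661 upstream and 2 downstream inclusion reads in DMSO. Its lowest depth was 81 reads. The part of this one-sided reading in the difference was not tested.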

How the results depend on the processing

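The counts of long exons called in H3B-8800 were 592 in WT and 541 in K700E. They moved by over 1.5 times with a size of 20 points (288 in WT and 288 in K700E) and with another length limit, to 1318 and 1227 at 200 nt and to 264 and 240 at 400 nt, by construction. Leaving out 1 replicate gave 568 to 595 and 522 to 544. With a replicate block on the name suffix they were 592 and 539, of which 588 and 537 were shared with the fit without the block, and introns beside long exons gave 942 and 912 in place of 943 and 916. The introns ranged from 913 to 959 and from 863 to 972 without 1 replicate.

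Between the genotypes in DMSO the count of 3 was 5 on the percentage scale, 10 with read weights, 1 with only the compared groups, 0 at 20 points, 0 for two-sided exons, 3 with the replicate block by number and 1 to 4 without 1 replicate. The cause was not tested, and TTI1, KDM3A and ATF7 each lost the call under at least 1 of these refits. Of the named exons called in H3B-8800, 34 of 34 in each genotype kept the call under every refit run. Most of them were picked for large changes in the same samples, so this says little about calls near 10 points. The count of different effects, 0, was 6 on the percentage scale and 0 to 1 without 1 replicate (1 without WT DMSO replicate 1 or 3).

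The median change over long exons kept its sign. In WT it was -0.15, and -0.167 at 50 reads, -0.177 at 200 nt, -0.207 at 400 nt, -0.177 for two-sided exons (chosen after seeing the data) and -0.163 to -0.107 without 1 replicate. In K700E it was -0.157, and -0.173, -0.173, -0.217, -0.17 and -0.161 to -0.113. Depth limits the rest: at the median of 267 reads a level of 50% is known to 5.95 points.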

Other observations

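Other genes held 3 or more long exons that fell in WT, and they were looked up after their values were seen. PTPN13, a protein tyrosine phosphatase, had 4 of 5, with means that went from 66.2% to 40.4%, from 89.0% to 71.3%, from 97.4% to 86.5% and from 94.5% to 75.7%. Its last long exon, of 338 nt, was at 100% in all 12 samples. ZNF638 had 3 falls, in exons of 1519, 1225 and 955 nt, from 96.5% to 76.6%, from 96.9% to 71.5% and from 98% to 87.5%. Its 252 nt exon was at 15.3% in both WT groups. In LY9, the exons of 276 and 342 nt that follow each other were at 84.2%, 66.8% and 57.1%, and at 81.9%, 62.1% and 52.9%, in WT with H3B-8800, so replicate 1 was the highest for both.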
